A study of Mus musculus with 9 samples.

Results

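A set of 9 genes of blood coagulation and of the plasminogen activator system were followed in RNA from sorted mouse lung cells: Plat, Plau, Plaur, Serpinb2, Serpine2, F13a1, F3, Tfpi and Thbd. They were chosen by name from the 54361 genes measured, with earlier results of these data known. All 9 passed the lowest mean used for testing, a normalized count of 5 over the 9 libraries. The cells were labelled eosinophils, a granulocyte that carries the surface lectin Siglec-F in mice, and came from whole lungs of C57BL/6 mice. The 9 libraries fell into 3 groups of 3. The Siglec-F high and Siglec-F int libraries held cells with high or intermediate Siglec-F from the lungs of mice given PyMT tumour cells by tail vein, a model of experimental lung metastasis. The naive libraries held lung cells of mice given saline alone. Both injections were of 200 µl, and each library pooled cells of 3 to 4 mice, so each group of 3 counts pools and not animals. The labels do not give the gate that set Siglec-F high apart from Siglec-F int, and no genetic change of the mice is named.

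Coagulation and fibrinolysis work against each other through a small set of proteases and their inhibitors. Tissue factor, encoded by F3, starts coagulation on cell surfaces, and tissue factor pathway inhibitor (Tfpi) blocks that first step. Thrombin then makes fibrin, which the transglutaminase factor XIII cross-links through the A subunit encoded by F13a1, while thrombomodulin (Thbd) turns bound thrombin towards activation of protein C. The plasminogen activators of tissue type (Plat) and urokinase type (Plau) make plasmin, which dissolves fibrin and cleaves matrix proteins. Plaur is the receptor that holds the urokinase type at the cell surface, and the serpins Serpinb2 (plasminogen activator inhibitor type 2) and Serpine2 (protease nexin 1) inhibit these proteases. In inflamed lung, macrophages, platelets, endothelium and fibroblasts are known sources of several of these products.

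The libraries held 2205949 to 12495639 reads, recovered from the deposited normalized counts. The summed level of 9 eosinophil markers ran from 515 to 1141 in Siglec-F high libraries, from 189.5 to 419 in Siglec-F int libraries and from 268 to 742 in naive libraries. Its largest parts by group mean were Ear2 (means of 409, 170.2 and 309 normalized counts in Siglec-F high, Siglec-F int and naive libraries) and Ear1 (139.97, 46.3 and 87.8). Prg2, the granule major basic protein, averaged 129, 39.1 and 5.01, and replicate 3 led each group, at 379.5, 105.6 and 15.0. The other Prg2 values were 6.58 and 0.6 in Siglec-F high, 3.76 and 8.0 in Siglec-F int and 0 in naive libraries. Of the 9 eosinophil markers, 6 had enough signal to be tested, and none of these was called in any comparison. Siglecf itself had 17.6, 3.58 and 14.5 normalized counts in Siglec-F high libraries, 6.98, 20.2 and 11.1 in Siglec-F int libraries and 12.6, 31.3 and 4.18 in naive libraries. Ccr3, which was not tested, had 29, 33 and 0 reads over the Siglec-F high, Siglec-F int and naive groups. The summed level of 10 pigment cell markers, led by Dct, Pmel and Sox10, ran from 212 to 1093 in Siglec-F high libraries and from 362 to 710.4 in Siglec-F int libraries, against 64640 to 72763 in naive libraries, and all 10 of these markers were lower in both groups. Siglec-F high replicate 1 had the highest share of mitochondrial reads, 31.1% against 11.5% to 21.2% in the other libraries, and Siglec-F int replicate 2 had a summed level of 75224 for 12 monocyte and interstitial macrophage markers, against 18285 and 21811 in its group. What the naive libraries hold cannot be told apart from the effect of the tumour cells in any comparison with them, and in bulk RNA a change in the number of cells of a type cannot be told apart from a change in RNA per cell.

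Of the 9 genes, 5 changed in Siglec-F high relative to naive libraries and 3 in Siglec-F int relative to naive libraries, and none differed by the test between Siglec-F high and Siglec-F int. F13a1 and Plat rose and Tfpi fell in both comparisons, and Plau and Serpinb2 rose in Siglec-F high libraries. In Siglec-F int libraries those 2 genes did not pass the test, although all 3 libraries lay above the naive ones. Plaur, Serpine2, F3 and Thbd were not called in either comparison. Calls are adjusted p under 0.05 by limma's moderated test on log2(normalized count + 1), fitted over all 9 libraries and adjusted by the Benjamini-Hochberg method over 13642 genes. For Siglec-F high relative to naive libraries, 4 members were called higher and 1 lower, where 14.7% of all genes tested were called higher and 16.6% lower, 31.3% in all. For Siglec-F int relative to naive libraries, 2 were called higher and 1 lower, where 12% of all genes were called higher and 10.3% lower, 22.3% in all. The median log2 fold change of the 9 genes was 0.82 and 1.098 in these comparisons, against -0.11 and -0.02 over all genes tested. Because the 9 genes were chosen with earlier results of these data known, the counts and medians describe them and carry no test against all genes. Both comparisons use the same 3 naive libraries, so they are not independent of each other.

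**Figure D1:**
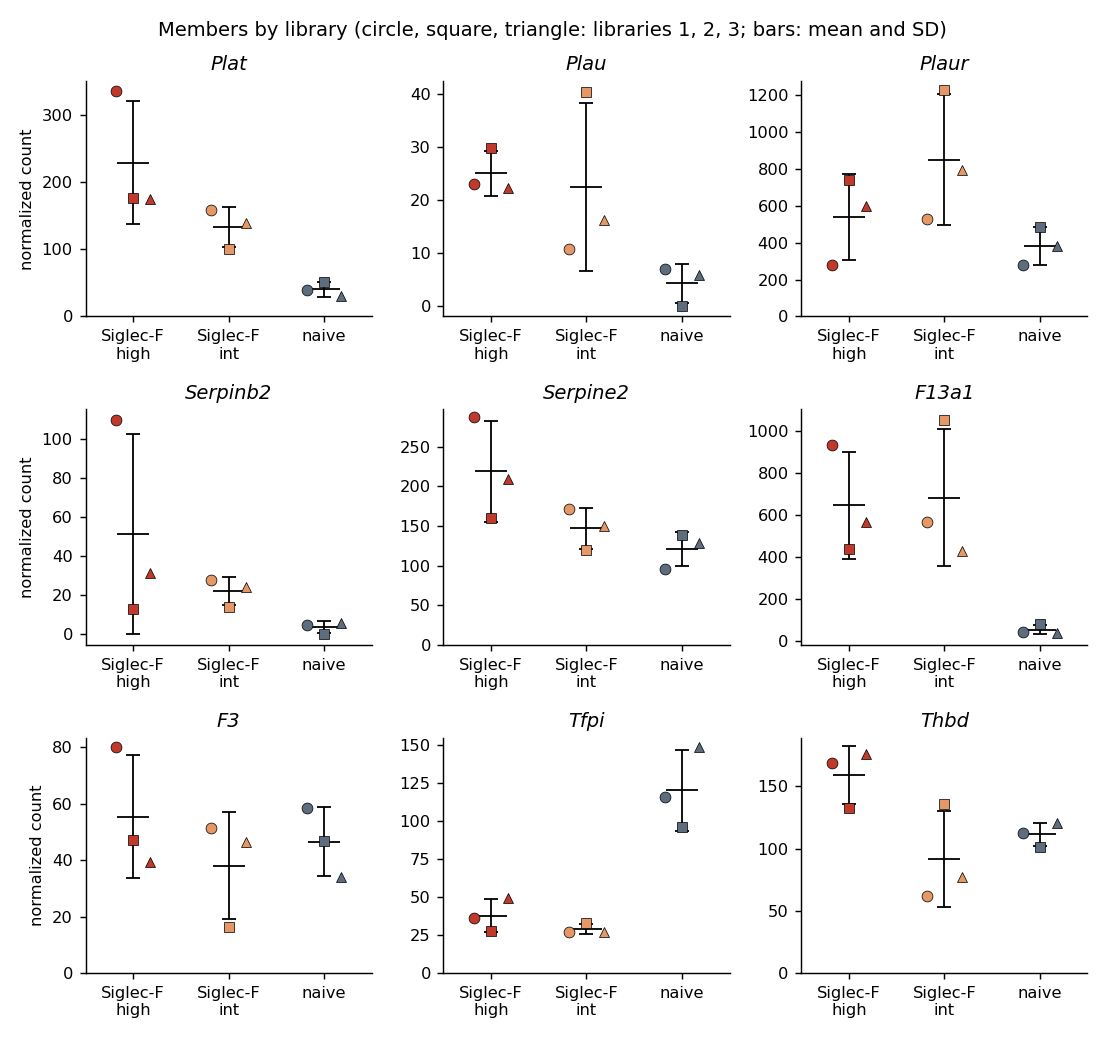
Normalized count of each of the 9 genes (y axis, from 0 in each panel) in each library, by group; circles, squares and triangles are replicates 1, 2 and 3, and the bars are the mean and SD of 3 libraries. F13a1, Plat, Plau and Serpinb2 sat above the naive libraries in all 6 libraries from mice given tumour cells, and Tfpi sat below.

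Promoter windows from RefSeq (GRCm38.p6) were at hand for 6 of the 9 genes: F13a1, F3, Plaur, Serpinb2, Serpine2 and Tfpi. Each window ran from 250 bases before to 50 bases after an annotated transcription start. F13a1, Serpinb2 and Tfpi each have another window, at a further annotated start, that is not printed. The windows of F13a1 and Serpinb2, which rose, Tfpi, which fell, and Plaur, which was not called by limma, are shown so that the letters upstream of the genes that moved can be set beside those of another gene. Capitals mark motif matches on either strand.
F13a1, chr13:37050195-37050494, minus strand: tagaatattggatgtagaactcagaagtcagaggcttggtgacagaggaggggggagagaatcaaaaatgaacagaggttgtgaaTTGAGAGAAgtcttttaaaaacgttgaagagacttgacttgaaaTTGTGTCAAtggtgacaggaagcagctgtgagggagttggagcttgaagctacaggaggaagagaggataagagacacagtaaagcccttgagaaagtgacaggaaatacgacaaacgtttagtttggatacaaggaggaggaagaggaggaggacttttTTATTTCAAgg
Serpinb2, chr1:107511173-107511472, plus strand: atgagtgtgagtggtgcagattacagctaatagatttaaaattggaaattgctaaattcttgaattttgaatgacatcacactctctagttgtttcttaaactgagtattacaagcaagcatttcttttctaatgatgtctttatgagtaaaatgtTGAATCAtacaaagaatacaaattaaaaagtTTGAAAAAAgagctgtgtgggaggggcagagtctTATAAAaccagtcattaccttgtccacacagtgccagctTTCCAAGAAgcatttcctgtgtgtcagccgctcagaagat
Tfpi, chr2:84476710-84477009, minus strand: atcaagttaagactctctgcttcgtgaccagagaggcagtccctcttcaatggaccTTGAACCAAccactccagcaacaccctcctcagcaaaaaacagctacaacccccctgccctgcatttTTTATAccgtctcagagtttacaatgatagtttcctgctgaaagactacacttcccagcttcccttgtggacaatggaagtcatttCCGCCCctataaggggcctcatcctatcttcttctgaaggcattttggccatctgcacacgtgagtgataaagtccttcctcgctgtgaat
Plaur, chr7:24462233-24462532, plus strand: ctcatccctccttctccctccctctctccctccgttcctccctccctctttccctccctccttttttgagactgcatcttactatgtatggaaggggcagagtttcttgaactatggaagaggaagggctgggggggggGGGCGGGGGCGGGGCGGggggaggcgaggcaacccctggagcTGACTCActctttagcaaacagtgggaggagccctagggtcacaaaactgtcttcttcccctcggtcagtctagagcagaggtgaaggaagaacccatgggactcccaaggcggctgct

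The 7 motifs below were searched on both strands: AP-1 (TGANTCA), CRE (TGACGTCA), SP1 (GGGCGG), STAT (TTCNNNGAA), C/EBP (TTGNNNNAA), the TATA box (letters TATAAA) and the NF-kB motif, and no match of one overlapped a match of another. Counts of genes take a match in any of the 9 windows of the 6 genes, whereas the shares are of single windows, so the units differ. The AP-1 letters occurred in the windows of 3 of the 6 genes, F3, Plaur and Serpinb2, and in 7.81% of all 32851 promoter windows. SP1 letters occurred in 4 genes (F3, Plaur, Serpine2 and Tfpi) and in 35.7% of all windows, and C/EBP letters in 3 genes (F13a1, Serpinb2 and Tfpi) and in 34.7%. TATA letters occurred in 3 genes and in 13.6% of all windows. The Serpinb2 match started 29 bases before the annotated start of the window printed and 116 bases before that of its other window. The STAT letters occurred in Serpinb2 alone among the 6 and in 8.30% of all windows. CRE letters, in 1.79% of all windows, and the NF-kB motif, in 4.51%, had no match in the windows of the 6 genes. F13a1 and Tfpi, which moved in opposite directions, both held C/EBP letters, and neither held an AP-1 match. The F13a1 matches all lay in the window printed, and its other window held no match of any motif. A match describes letters in these windows and shows no binding.

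**Figure D2:**
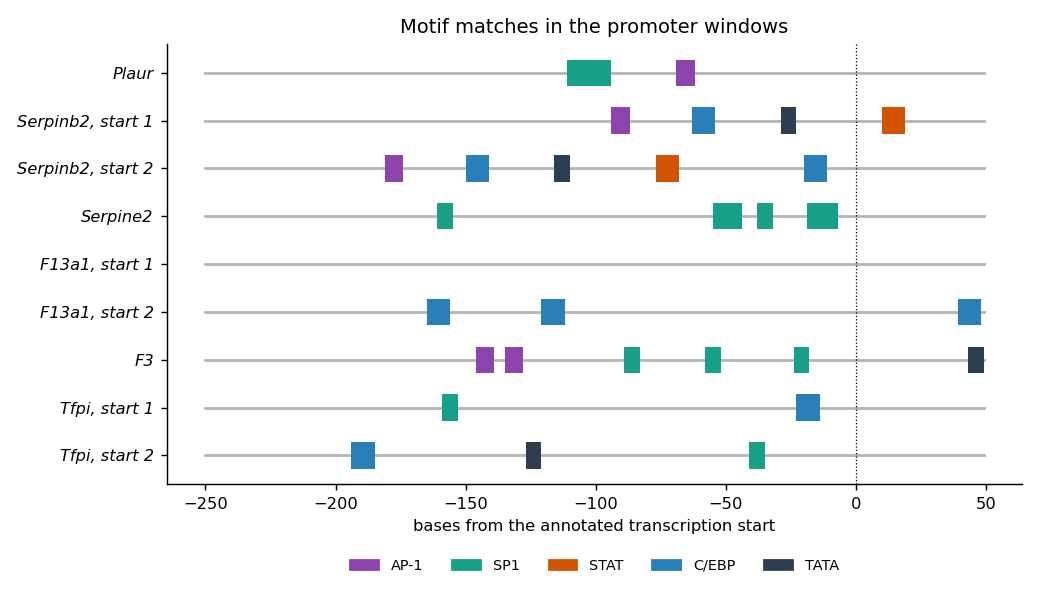
Motif matches (coloured boxes) in the 9 promoter windows of 6 genes, by distance in bases from the annotated transcription start (x axis, dotted line at the start); genes with 2 annotated starts have 2 lines. AP-1 boxes appear in F3, Plaur and Serpinb2, and SP1 boxes in F3, Plaur, Serpine2 and Tfpi.

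Plat, on chromosome 8 (GRCm38, 22757727 to 22782844, plus strand), encodes the tissue type activator, a serine protease best known as the fibrinolytic enzyme released by endothelium. It had 336, 177 and 176 normalized counts in Siglec-F high libraries, 159, 100.3 and 139 in Siglec-F int libraries and 39.0, 52.1 and 30.1 in naive libraries. The 3 groups did not overlap, with every Siglec-F high library above every Siglec-F int library and both above the naive ones. On the log2 scale Plat rose by 2.44 ± 0.40 (SE) in Siglec-F high relative to naive libraries (limma, adjusted p = 0.00225). It rose by 1.70 ± 0.40 in Siglec-F int relative to naive libraries (limma, adjusted p = 0.0142), a call lost without naive replicate 3 (adjusted p = 0.0507), Siglec-F int replicate 1 (adjusted p = 0.0684) or Siglec-F int replicate 3 (adjusted p = 0.0628). The gene was read 808 times over the Siglec-F high group, 975 times over the Siglec-F int group and 90 times over the naive group. The summed level of 12 fibroblast and smooth muscle markers, led by Col3a1, Dcn and Col1a2, ran from 26000 to 38412 in Siglec-F high libraries, from 11026 to 27092 in Siglec-F int libraries and from 7125 to 8778 in naive libraries. Of these 12 markers, 7 were called higher in Siglec-F high and 5 in Siglec-F int libraries relative to naive ones, and their part in the Plat result was not tested. The list went both ways: 9 of the 12 means lay above naive in each group, and the smooth muscle genes Tagln, Myh11 and Des lay below, with Des at 26.2, 28.8 and 51.3 normalized counts in Siglec-F high, Siglec-F int and naive libraries. The summed levels of 10 endothelial markers were 719 to 1157 in Siglec-F high libraries, 791 to 1015 in Siglec-F int libraries and 1583 to 2076 in naive libraries. Of these 10, 5 had means below naive in Siglec-F high and 9 in Siglec-F int; Pecam1 averaged 243 in Siglec-F high, 183 in Siglec-F int and 201 in naive libraries, and Kdr 73.2, 53.6 and 41.1.

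Plau, on chromosome 14 (20836660 to 20843385, plus strand), encodes urokinase, the activator that cells carry on their surface during migration through matrix. It had 23.0, 29.8 and 22.2 normalized counts in Siglec-F high libraries, 10.7, 40.5 and 16.1 in Siglec-F int libraries and 6.88, 0 and 5.85 in naive libraries. All 6 libraries from mice given tumour cells lay above the 3 naive ones, and the Siglec-F int libraries spanned the whole range of the Siglec-F high ones. The naive values rest on 13 reads over the group (exact 95% Poisson interval 6.92 to 22.2), against 97 and 167 reads in the Siglec-F high and Siglec-F int groups. Plau rose in Siglec-F high relative to naive libraries by 2.77 ± 0.88 on the log2 scale (limma, adjusted p = 0.0360), and differed by 2.42 ± 0.88 in Siglec-F int relative to naive libraries (limma, adjusted p = 0.0713). The call in Siglec-F high was lost under 11 alternatives, among them edgeR on the recovered reads (adjusted p = 0.0597), the fit of those groups alone (0.0829) and the fit without naive replicate 2 (1.81 on the log2 scale, adjusted p = 0.0833), the library in which no Plau read was seen.

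Plaur, on chromosome 7 (24462484 to 24475968, plus strand), encodes the urokinase receptor, which is anchored to the outer membrane of leukocytes. It had 279.7, 736 and 600.4 normalized counts in Siglec-F high libraries, 525, 1227 and 791 in Siglec-F int libraries and 279, 485 and 383 in naive libraries. The Siglec-F high libraries overlapped the naive ones through replicate 1, whereas the 3 Siglec-F int libraries lay above all naive ones. The differences were 0.42 ± 0.43 for Siglec-F high (limma, adjusted p = 0.469) and 1.098 ± 0.43 for Siglec-F int (limma, adjusted p = 0.0927), each relative to naive libraries. The difference in Siglec-F int passed the threshold under 5 alternatives, including edgeR (adjusted p = 0.0461), DESeq2 (adjusted p = 0.0260) and the fit without Siglec-F high replicate 1 (adjusted p = 0.0253). The summed monocyte and interstitial macrophage markers, led by Lyz2, C1qb and C1qc, ran from 13254 to 22064 in Siglec-F high libraries, from 18285 to 75224 in Siglec-F int libraries and from 7463 to 10811 in naive libraries. In both the Siglec-F high and Siglec-F int groups the libraries ranked alike in Plaur and in this sum (replicate 2, then 3, then 1), whereas naive libraries ranked 2, 3, 1 in Plaur and 2, 1, 3 in the sum. All 12 markers had means above naive in both groups, and their part in the Plaur values was not tested.

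The inhibitors of the activators among the members are Serpinb2 and Serpine2. Serpinb2, on chromosome 1 (107511423 to 107535478, plus strand), is an inhibitor of urokinase that macrophages make on stimulation. It had 109.7, 13.1 and 31.6 normalized counts in Siglec-F high libraries, 27.9, 13.9 and 24.4 in Siglec-F int libraries and 4.59, 0 and 5.85 in naive libraries. Both groups lay above the naive libraries without overlap, and the values within Siglec-F high were spread widely, with replicate 1 far above the rest. Serpinb2 rose by 3.46 ± 0.95 on the log2 scale in Siglec-F high relative to naive libraries (limma, adjusted p = 0.0205) and differed by 2.72 ± 0.95 in Siglec-F int relative to naive libraries (limma, adjusted p = 0.0619). The call was lost under 4 alternatives. Without Siglec-F high replicate 1 the value was 2.67 (adjusted p = 0.0523), or 0.0670 with Siglec-F int replicate 2 also left out. Without naive replicate 2 it was 2.58 (adjusted p = 0.0599), and with the groups fitted alone the adjusted p was 0.0611. The Siglec-F int difference passed under 8 alternatives, among them TMM scaling (adjusted p = 0.0467), DESeq2 (adjusted p = 0.0355) and the fit without Siglec-F high replicate 1 (adjusted p = 0.0268). Naive values rest on 11 reads (exact 95% Poisson interval 5.49 to 19.7), against 159 and 162 reads in the Siglec-F high and Siglec-F int groups. Serpinb10, a neighbouring serpin that overlaps Serpinb2 on the same strand, had 19, 16 and 12 reads in Siglec-F high, Siglec-F int and naive groups, few reads beside those of Serpinb2.

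Serpine2, on chromosome 1 (79794197 to 79861180, minus strand), inhibits thrombin, urokinase and the tissue type activator. It had 287, 159.9 and 209 normalized counts in Siglec-F high libraries, 171, 119.7 and 149.9 in Siglec-F int libraries and 96.3, 138 and 129 in naive libraries. The Siglec-F high libraries lay above all naive ones, and the Siglec-F int libraries overlapped them. The differences from naive libraries, 0.82 ± 0.34 for Siglec-F high (limma, adjusted p = 0.0890) and 0.28 ± 0.34 for Siglec-F int (limma, adjusted p = 0.591), did not pass the threshold, although DESeq2 called the first (adjusted p = 0.0305).

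F13a1 showed the largest of the changes that passed in both comparisons with naive libraries. The gene lies on chromosome 13 (36867178 to 37050244, minus strand), and its product is known in monocytes, macrophages, megakaryocytes and platelets. It had 932, 441 and 568 normalized counts in Siglec-F high libraries, 568, 1052 and 431 in Siglec-F int libraries and 45.9, 80.8 and 40.9 in naive libraries. Every library from mice given tumour cells lay above every naive one, and the Siglec-F high and Siglec-F int libraries were mixed among themselves. F13a1 rose by 3.50 ± 0.43 on the log2 scale in Siglec-F high (limma, adjusted p = 0.000572) and by 3.55 ± 0.43 in Siglec-F int (limma, adjusted p = 0.000742), each relative to naive libraries. Both calls held under every alternative run. The values rest on 2255 and 4917 reads in the Siglec-F high and Siglec-F int groups and 120 in the naive group. Antisense genes annotated across F13a1 held few reads. Gm49144 had 6, 2 and 0 reads in Siglec-F high, Siglec-F int and naive groups, and Gm30489 had 0 in each.

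Markers of 2 cell types known for factor XIII were read beside F13a1. Monocyte and interstitial macrophage markers, whose sums are given above, were called higher for 6 of 12 genes in Siglec-F high and 7 of 12 in Siglec-F int libraries. In Siglec-F high the libraries ranked 1, 3, 2 in F13a1, the reverse of this sum (2, 3, 1). In Siglec-F int they ranked 2, 1, 3 in F13a1 and 2, 3, 1 in the sum, and in naive libraries 2, 1, 3 in both. The summed level of 10 megakaryocyte and platelet markers ran from 727 to 2001 in Siglec-F high libraries, from 960.3 to 1510.4 in Siglec-F int libraries and from 341 to 461 in naive libraries. Of these, Pf4 and Ppbp, both platelet chemokines, were called higher in both comparisons. The rest of the list did not follow them: 4 of its 10 means lay above naive and 5 below in each group, with the integrin gene Itga2b at 58.3, 65.3 and 76.2 normalized counts and Treml1 at 1.68, 5.28 and 15.8 in Siglec-F high, Siglec-F int and naive libraries. The defining platelet receptor gene Gp1bb was at 0 in all 9 libraries, and whether its reads could be counted here was not checked. Gp1ba and Gp6 were also at 0 in naive libraries. The megakaryocyte and platelet sum ranked the libraries as F13a1 did in Siglec-F high (1, 3, 2) and Siglec-F int (2, 1, 3), but not in naive libraries (2, 3, 1 in the sum). The part of both cell types in the F13a1 result was not tested.

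F3, on chromosome 3 (121723537 to 121735048, plus strand), did not separate the groups. It had 80.1, 47.1 and 39.2 normalized counts in Siglec-F high libraries, 51.5, 16.4 and 46.5 in Siglec-F int libraries and 58.5, 46.9 and 34.3 in naive libraries. The ranges of all 3 groups overlapped, and the extremes were Siglec-F high replicate 1 and Siglec-F int replicate 2. The difference was 0.21 ± 0.55 in Siglec-F high (limma, adjusted p = 0.785) and -0.40 ± 0.55 in Siglec-F int (limma, adjusted p = 0.629), each relative to naive libraries, and both changed sign when the extreme library was left out, to -0.079 and 0.10.

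Tfpi, on chromosome 2 (84432855 to 84476775, minus strand), was the one gene of the 9 that fell. It had 36.2, 28.04 and 49.5 normalized counts in Siglec-F high libraries, 27.4, 33.3 and 27.2 in Siglec-F int libraries and 116, 96.4 and 149 in naive libraries. Every naive library was above every library from mice given tumour cells. Tfpi fell by 1.66 ± 0.42 on the log2 scale in Siglec-F high (limma, adjusted p = 0.0156) and by 1.99 ± 0.42 in Siglec-F int (limma, adjusted p = 0.00865), each relative to naive libraries. Without naive replicate 3, the highest library, the Siglec-F high value was -1.49 and missed the threshold (adjusted p = 0.0590), while the Siglec-F int call held under every alternative run. In the mouse Tfpi is known mainly from endothelium and platelets. Of 10 endothelial markers, Eng and Plvap were called lower in Siglec-F high and Eng in Siglec-F int libraries, with the other 8 and 9 not called. The summed endothelial and pigment cell levels given above were lower than in naive libraries, and 5 endothelial markers, Pecam1 and Kdr among them, had means above naive in Siglec-F high libraries. Their part in the Tfpi result was not tested.

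Thbd, on chromosome 2 (148404466 to 148408188, minus strand), had 169, 132 and 176 normalized counts in Siglec-F high libraries, 62.3, 136 and 77.2 in Siglec-F int libraries and 112, 102 and 120.3 in naive libraries. The Siglec-F high libraries lay above the naive ones without overlap, and the Siglec-F int libraries fell on both sides of them. Neither difference from naive libraries passed, at 0.50 ± 0.37 for Siglec-F high (limma, adjusted p = 0.314) and -0.35 ± 0.37 for Siglec-F int (limma, adjusted p = 0.524).

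**Figure D3:**
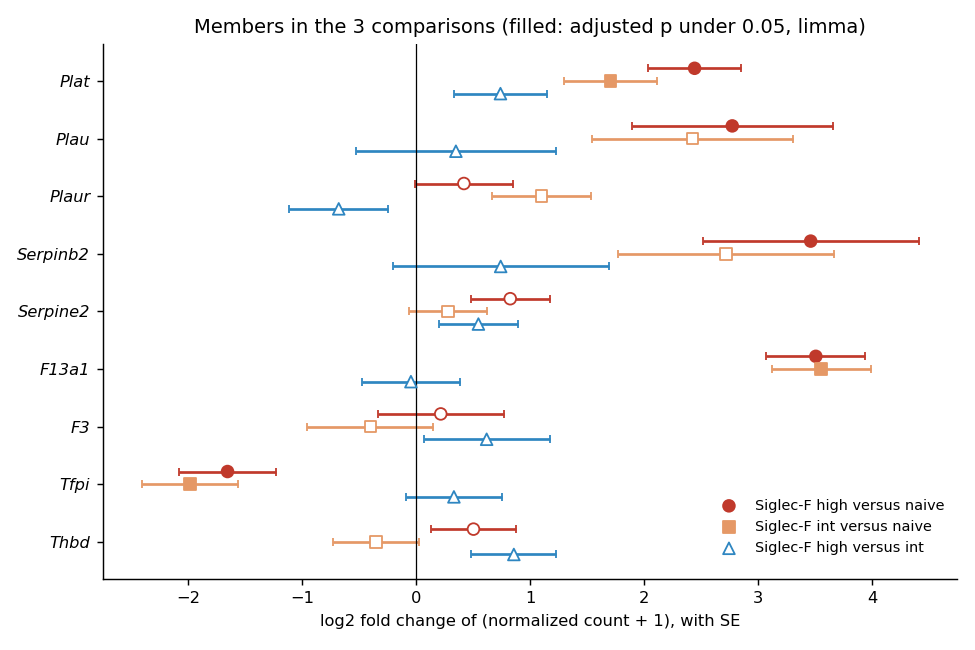
Log2 fold change of each gene (x axis, first group minus second, with SE as bars) in the 3 comparisons; filled symbols passed an adjusted p of 0.05 by limma. F13a1 lay furthest to the right in Siglec-F int relative to naive libraries (3.55), Tfpi furthest to the left (-1.99), and no symbol of the Siglec-F high against Siglec-F int comparison is filled.

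Set against the naive libraries without a model, 6 of the 9 genes lay higher without overlap and 1 lower in Siglec-F high libraries, where 20.2% of all genes tested lay higher and 26.3% lower. In Siglec-F int libraries 5 lay higher and 1 lower, where 23.3% of all genes lay higher and 27.6% lower. Without both Siglec-F high replicate 1 and Siglec-F int replicate 2, 3 members passed limma in Siglec-F high and 4 in Siglec-F int, each relative to naive libraries. All genes called in Siglec-F int also rose in that fit. No share of all genes is set beside these member counts, so they describe the fit and not the members alone.

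Siglec-F high and Siglec-F int cells from the same treatment were then compared with each other, which asks whether surface Siglec-F goes with the level of these genes. No member was called, and neither was any of the 13642 genes tested by limma, 0.0% of them; 591 genes and 1 member, Thbd, had an unadjusted p under 0.05. The edgeR test also called 0 genes and DESeq2 called 6, none of them a member. Thbd differed by 0.86 ± 0.37 on the log2 scale (unadjusted p = 0.0433, limma adjusted p = 0.797), with Siglec-F int replicate 2 inside the Siglec-F high range. Plat was the 1 member whose groups did not overlap, a pattern that 5.52% of all genes showed in the same direction and 5.75% in the other, at 0.74 ± 0.40 (limma, adjusted p = 0.797). Plaur went the other way, at -0.68 ± 0.43 (limma, adjusted p = 0.797), and F13a1 was closest to no difference, at -0.05 ± 0.43 (limma, adjusted p = 0.979). The SEs of 0.34 to 0.95 over the 9 genes show how wide a difference between these groups 3 libraries leave undecided, and a p above the threshold does not show that the groups were alike. The summed level of 8 alveolar macrophage markers, led by Chil3, Mrc1 and Atp6v0d2, ran from 5406 to 7909 in Siglec-F high libraries. In Siglec-F int libraries it ran from 2692 to 3533. None of the 8 was called between these groups, and their part in the values of the members was not tested.

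Within a group the libraries ranked differently from gene to gene. Siglec-F high replicate 1 was the highest of all 9 libraries in Plat, Serpinb2, Serpine2 and F3 and the lowest of its group in Plaur. Siglec-F int replicate 2 was the highest of all in Plau, Plaur and F13a1 and the lowest of all in F3. The highest library was 25.7 times the lowest in F13a1 and 2.82 times in Thbd.

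**Figure D4:**
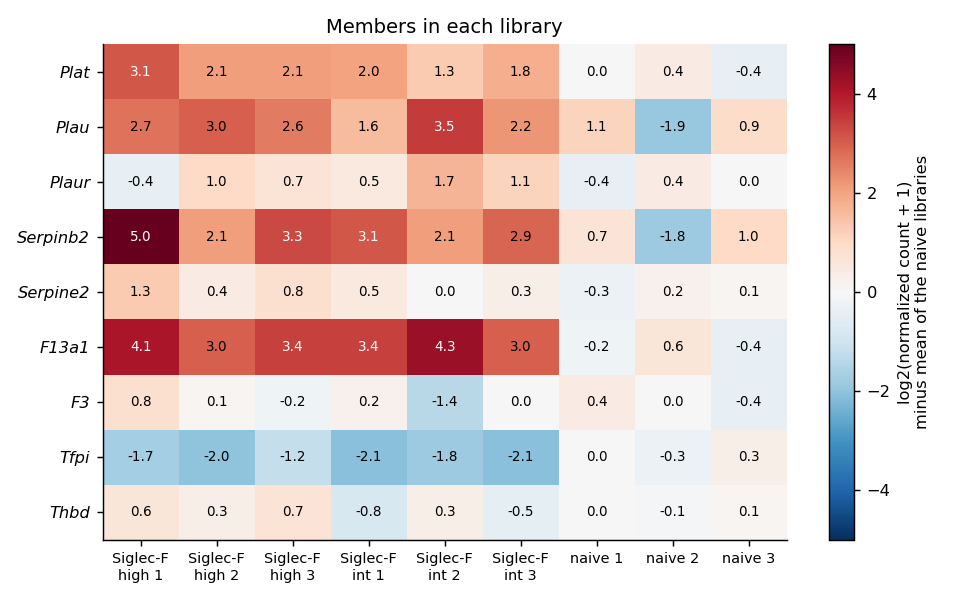
Difference of each library from the mean of the naive libraries, on the log2(normalized count + 1) scale (colour and printed value), for the 9 genes (rows) in the 9 libraries (columns). The rows of F13a1, Plat, Plau and Serpinb2 are positive in all 6 libraries from mice given tumour cells, the Tfpi row is negative in them, and the Plaur, F3 and Thbd rows have both signs.

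The other genes of coagulation and fibrinolysis were read from 6 lists of 56 genes in all, of which 32 had enough signal to be tested. Plasminogen itself (Plg), the substrate of both activators, had 0, 10 and 0 reads over the Siglec-F high, Siglec-F int and naive groups, and the genes of prothrombin (F2) and fibrinogen (Fga, Fgb and Fgg), products of the liver, were also below the minimum. F2rl1 and F9, with no naive read, and Serpini1, with 2, reached the minimum only through libraries from mice given tumour cells. Any call of these genes relative to naive libraries could only be higher, and they are counted in what follows. Of the 32, 9 were called higher and 3 lower in Siglec-F high and 8 higher and 3 lower in Siglec-F int, each relative to naive libraries. That is 37.5% and 34.4% of them called, against 31.3% and 22.3% of all genes tested. The 11 calls in Siglec-F int became 17 without Siglec-F high replicate 1 and 7 without Siglec-F int replicate 3. Calls over all 13642 genes swung as well, from 3036 in the values reported to between 1401 and 5167 with a library left out. The swing is therefore not particular to these lists. The median log2 fold changes of the 32 genes were 0.87 and 1.02, against -0.11 and -0.02 over all genes tested. The lists too were chosen with earlier results of these data known, so these shares and medians carry no test against all genes. No gene of the 32 was called between Siglec-F high and Siglec-F int, where the median was 0.0080.

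Of 4 other inhibitors of plasminogen activation and plasmin, 1 was called higher and none lower in each comparison, with list medians of 1.28 and 1.22. Serpinb6a, a serpin found inside cells, had 1334, 2932 and 2376 normalized counts in Siglec-F high libraries, 2148.3, 1171 and 2148.3 in Siglec-F int libraries and 1211, 815 and 1039 in naive libraries. It rose by 1.06 ± 0.36 in Siglec-F high libraries (limma, adjusted p = 0.0476), a call lost under 12 alternatives. Serpini1, neuroserpin, which inhibits the tissue type activator, was called higher in Siglec-F int libraries (limma, adjusted p = 0.0398), a call lost under 10. Serpini1 had 48, 103 and 2 reads over the Siglec-F high, Siglec-F int and naive groups, and means of 13.5, 13.4 and 0.56 normalized counts. Its ratio to naive was 15.7 in Siglec-F high (95% counting interval 4.10 to 133) and 17.1 in Siglec-F int (4.61 to 143). It was not called in Siglec-F high, where the libraries ran from 0.85 to 25.2, against 10.7 to 16.5 in Siglec-F int.

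Plasminogen receptors and binding proteins gave 3 higher and 1 lower call among 7 tested in each comparison, with medians of 1.68 and 1.66. Thbs1 encodes thrombospondin 1, a platelet and matrix protein that binds plasminogen, and rose by 2.68 ± 0.38 in Siglec-F high (limma, adjusted p = 0.00110) and by 2.72 ± 0.38 in Siglec-F int libraries (limma, adjusted p = 0.00134). S100a10, whose product holds plasminogen at the cell surface in a complex with annexin A2, rose by 2.01 ± 0.29 and 1.66 ± 0.29. Its partner Anxa2 was not called, at 0.28 ± 0.37 and 0.26 ± 0.37. Lrp1, the endocytic receptor that clears complexes of activator and inhibitor, rose by 2.21 ± 0.38 and 2.501 ± 0.38. Eno1, a glycolytic enzyme that also binds plasminogen on cell surfaces, differed by -3.28 ± 0.54 and -2.51 ± 0.54, both called lower, a value that is uncertain because near-identical copies of this gene can take part of its reads.

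Of 3 protease activated receptors tested, 2 were called higher in both comparisons, F2r and F2rl1. F2r, the thrombin receptor, had 1949, 771 and 1392 normalized counts in Siglec-F high libraries, 779, 381 and 894 in Siglec-F int libraries and 177, 59.9 and 159 in naive libraries. No library from mice given tumour cells fell within the naive range. It rose by 3.42 ± 0.51 in Siglec-F high (limma, adjusted p = 0.00133) and by 2.42 ± 0.51 in Siglec-F int libraries (limma, adjusted p = 0.00789). F2rl1, a receptor cleaved by trypsin-like proteases, had 52, 99 and 0 reads over the Siglec-F high, Siglec-F int and naive groups, at least 11.3-fold and 10.9-fold higher than a floor of 3 reads over the naive group, and was called in both. With no naive read it was tested only because of the groups in which it is high, so its calls could not have gone lower. The Siglec-F int call was lost without Siglec-F int replicate 3 (limma, adjusted p = 0.0730).

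Of 6 procoagulant genes tested, Fgl2 alone was called, in both comparisons (16.7% of the list). Fgl2 encodes fibroleukin, a membrane prothrombinase of macrophages, and had 294, 182 and 165 normalized counts in Siglec-F high libraries, 251.2, 736 and 279 in Siglec-F int libraries and 39.0, 46.9 and 37.6 in naive libraries. It rose by 2.31 ± 0.45 and 3.15 ± 0.45 on the log2 scale. The list's median in Siglec-F high was 0.90 as fitted and 0.69 with F9, which had no naive read, at its lower bound, and 1.501 in Siglec-F int. Of 6 anticoagulant genes, 1 was called higher and 1 lower in each comparison (33.3% of the list), with medians of 0.55 and 0.05. Pros1, protein S, the cofactor of activated protein C, rose by 1.97 ± 0.50 in Siglec-F high libraries (limma, adjusted p = 0.0157), and lost the call without naive replicate 3 (adjusted p = 0.0565). Procr, the endothelial protein C receptor, rose by 1.34 ± 0.44 in Siglec-F int libraries (limma, adjusted p = 0.0490), and lost the call under 12 alternatives. Hs3st1, a sulfotransferase that makes the heparan sulfate to which antithrombin binds, fell by 2.29 ± 0.67 in Siglec-F high and fell by 3.09 ± 0.67 in Siglec-F int libraries, the first call lost under 6 alternatives.

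**Figure D5:**
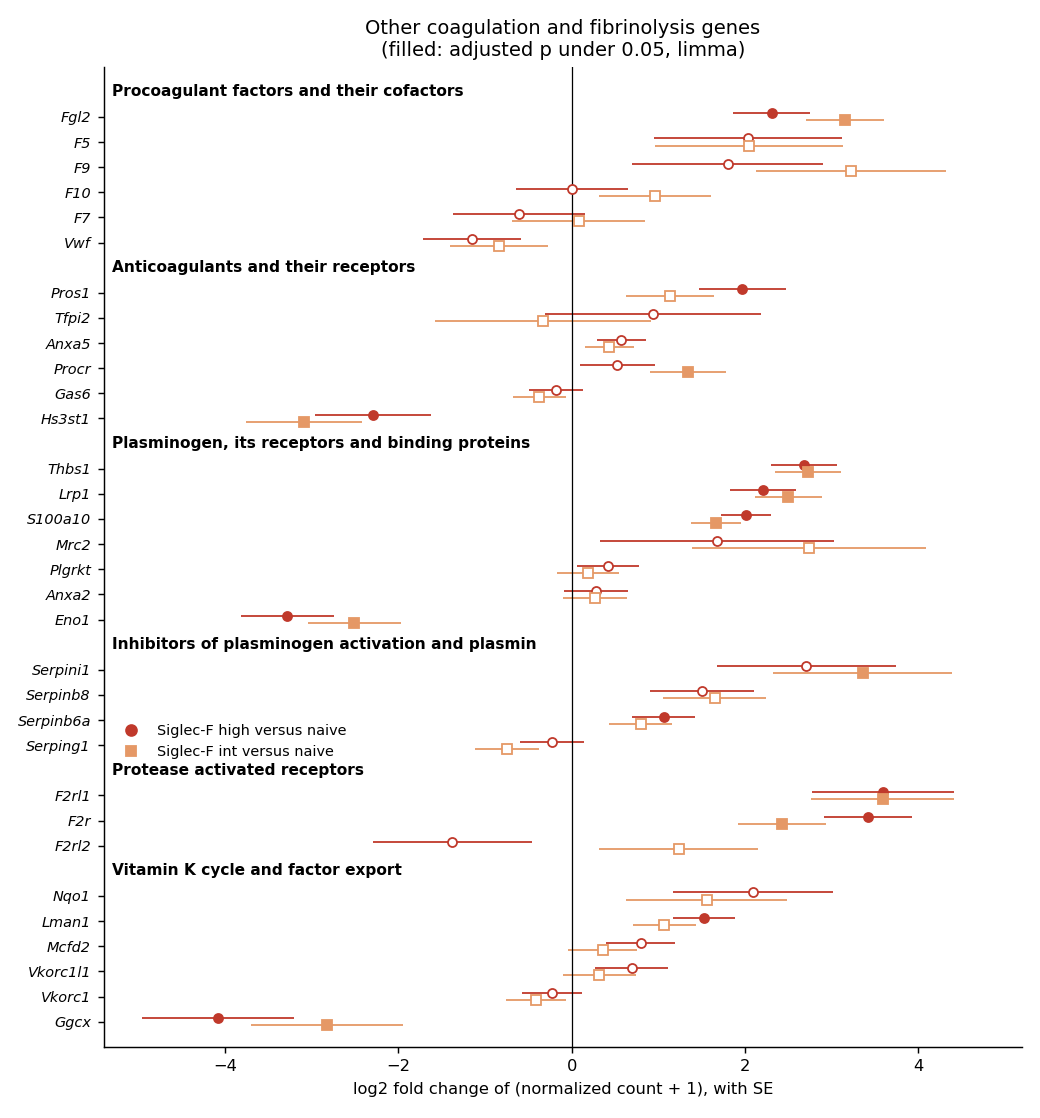
Log2 fold change (x axis, with SE as bars) relative to naive libraries of 32 other genes tested, by list, for Siglec-F high (circles) and Siglec-F int (squares); filled symbols passed an adjusted p of 0.05 by limma. Filled symbols to the right include F2r, F2rl1, Thbs1, Lrp1, S100a10 and Fgl2 in both comparisons, and those to the left are Eno1, Hs3st1 and Ggcx.

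The genes whose pattern over the 9 libraries was most like that of each member were found by Pearson's correlation of log2(normalized count + 1), among genes with a mean of at least 50. F13a1 was most like Il13ra1 and AA467197 (0.99 each), Plat most like Col10a1 and Peak1 (0.99 each) and Serpinb2 most like Lin7c and Stk3 (0.99 each). Plaur was most like Cyp4f18 and Tnf (0.98 each), Tfpi like Fmc1 and Tamm41 (0.98 each), Serpine2 like Tmpo and Ankrd28 (0.98 each) and Plau like Igtp and Slfn1 (0.97 each). F3 had Hmgn3 (0.91) among its closest, and Thbd was most like Mal2 (0.90) and Zfp395 (0.88). These are the highest of about 8117 correlations for each gene over 9 libraries that share their group differences, so they describe the libraries and carry no test.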

How the data were processed

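Libraries were made from RNA of sorted cells with a purity over 98% and an RNA integrity number over 6.3, per the labels' protocols. The submitters' processing notes name TopHat2 2.1.0, the GRCm38 build, HTSeq and DESeq2 1.10.0; whether counting used strand, and whether libraries came from separate cultures or days, is not given in the sources used here. The deposited signal is a normalized count, as the authors scaled each library by its own size factor. In units of each library's lowest non-zero step, 100% of the values that came to at most 2000 reads were whole to within 0.05 read, and these recovered reads gave the depth. Intervals and floors cover counting error only. P-values measure the spread between pools, which may be in part technical.

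Of 54670 entries, 63 with gene names turned into dates (0.219% of the total), 116 exact repeats and 130 further copies under one name were left out. No library pair of a group agreed within sampling noise. Genes with a mean of at least 5 were tested with limma 3.58.1 (R 4.3.3, variance trend) on log2(value + 1), group as the one term, two-sided, with Benjamini-Hochberg adjustment. For low genes a fold on this scale can lie above or below the ratio of means. In Siglec-F high relative to naive libraries it was 6.83 against 5.89 for Plau and 11.0 against 14.8 for Serpinb2. The alternatives were pseudocounts of 0.5 and 5, no filter and a mean of at least 20, equal totals, TMM, the groups compared alone, no variance trend, a replicate block, the count tests of edgeR 4.0.16 and of DESeq2 1.42.0 on recovered reads, and libraries left out. The limma test was first run on simulated data, and the edgeR and DESeq2 tests were not. The members and lists were chosen with earlier results of these data known. Named were all members, up to 3 called genes per direction of each pathway list or its most abundant gene, the 3 most abundant markers of each list described, and the 2 genes most like each member; 1 gene of a pathway list and 1 of the genes most like a member are not reported here. Outside this rule, the markers Siglecf, Ccr3, Gp1ba, Gp1bb, Gp6, Treml1, Kdr, Tagln, Myh11 and Des and the pathway genes Anxa2, Plg, F2, F9, Fga, Fgb and Fgg were named after their values were seen.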

Additional observations from a re-analysis of the deposited data

How the results depend on the processing

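Of the values of single members under the alternatives, 517 kept direction and side of the threshold, 19 lost and 15 gained the call, and 13 changed sign. These counts pool the 3 comparisons, and every lost or gained call was in a comparison with naive libraries. No member was called between Siglec-F high and Siglec-F int in any setting. Plau in Siglec-F high lost its call under 11 of 20 alternatives. F13a1 in both comparisons with naive libraries, Tfpi in Siglec-F int and Plat in Siglec-F high kept their calls in all alternatives. Members called in Siglec-F high relative to naive libraries numbered 3 with the groups fitted alone, 3 without both Siglec-F high replicate 1 and Siglec-F int replicate 2, and 3 to 5 with a library left out; all genes called numbered 2509 with the groups fitted alone and 2770 to 5101 with a library left out. In Siglec-F int relative to naive libraries, members called numbered 5 with the groups fitted alone, 6 by DESeq2 and 2 to 5 with a library left out, and all genes called numbered 4808, 4623 without both libraries, and 1401 to 5167. Between Siglec-F high and Siglec-F int, DESeq2 called 6 genes and the other settings 0. With a library left out, calls among the 32 other pathway genes numbered 9 to 15 in Siglec-F high and 7 to 17 in Siglec-F int relative to naive libraries.

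Changes of sign touched only differences that passed no test. With a library or both of those libraries left out, F3 ran from -0.079 to 0.43 in Siglec-F high and from -0.69 to 0.10 in Siglec-F int relative to naive libraries. Between Siglec-F high and Siglec-F int, F3 ran from -0.18 to 0.91, Serpinb2 from -0.34 to 1.44, F13a1 from -0.35 to 0.32, Plau from -0.047 to 0.91 and Plaur from -0.98 to 0.045. The causes were not tested.

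Equal totals moved the median of all genes in Siglec-F int relative to naive libraries to 0.23 from -0.02, that in Siglec-F high to 0.02 from -0.11 and that between Siglec-F high and Siglec-F int to -0.20 from -0.08, and in Siglec-F int moved the split of calls to 2007 higher and 897 lower (1634 and 1402 in the values reported); in Siglec-F high the split was 2141 and 1613 (1999 and 2267). With edgeR these splits were 1837 and 1038, and 2172 and 1378. Replicate numbers may pair samples: deviations of same-numbered Siglec-F high and Siglec-F int libraries correlated at 0.123, 0.141 and 0.0718, each library with its own number best, and those with naive libraries at -0.03 to 0.06. With a replicate block, members called numbered 4 and 5 relative to naive libraries, all genes 4317 and 3091, and 0 between Siglec-F high and Siglec-F int.

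Plau was not tested with a mean of at least 20. In naive libraries Plau had 13 reads and Serpinb2 11.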

Other observations

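The enzymes of the vitamin K cycle, which prepares clotting factors for secretion, gave one gene that fell far. Ggcx, the carboxylase that modifies factors such as prothrombin and protein S, had 0, 6.56 and 8.53 normalized counts in Siglec-F high libraries, 5.37, 8.0 and 16.1 in Siglec-F int libraries and 71.1, 59.9 and 78.5 in naive libraries. It fell by 4.08 ± 0.87 on the log2 scale in Siglec-F high (limma, adjusted p = 0.00759) and by 2.82 ± 0.87 in Siglec-F int libraries (limma, adjusted p = 0.0409), the second call lost under 10 alternatives. Lman1, a cargo receptor that carries factors V and VIII out of the endoplasmic reticulum, rose by 1.52 ± 0.36 in Siglec-F high libraries (limma, adjusted p = 0.0116) and differed by 1.07 ± 0.36 in Siglec-F int libraries (limma, adjusted p = 0.0563). Of the 6 genes of this list, 1 was called higher and 1 lower in Siglec-F high and 1 lower in Siglec-F int, with medians of 0.74 and 0.34.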
